A study of Mus musculus with 12 samples.

Results

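The inflammasome and pyroptosis genes Nlrp3, Nlrc4, Naip5, Aim2, Pycard, Casp1, Casp4, Casp8 and Gsdmd were examined in the lungs of neonatal mice. These 9 genes were chosen by name, with earlier results of these data known, out of 52550 annotated genes with a row of counts. All 9 were among the 15885 protein-coding genes with enough reads to be tested. Bulk RNA sequencing was performed on 12 whole-lung libraries of C57Bl/6J mice on postnatal day 5, with 3 libraries in each of 4 groups. WT (Adm+/+) and Adm+/- mice were given either lipopolysaccharide (LPS) of Escherichia coli O55:B5, a bacterial endotoxin, at 6 mg/kg, or the same volume of phosphate-buffered saline (PBS). Injections were intraperitoneal, 1 per day for 3 days from postnatal day 3, and lungs were frozen 6 h after the last dose. The Adm+/- mice carried 1 disrupted copy of the adrenomedullin gene in the germline, on an allele brought onto C57BL/6J by 12 generations of backcrossing. Libraries are named here by the number in their labels, which is 3, 4 and 5 for WT PBS, 9, 10 and 11 for WT LPS, 6, 7 and 8 for Adm+/- PBS, and 1, 2 and 12 for Adm+/- LPS.

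Inflammasomes are protein assemblies in the cytosol that form when a sensor such as Nlrp3, Aim2 or a Naip with its partner Nlrc4 meets a microbial product or a sign of damage. The sensor recruits the adaptor Pycard (also called ASC) and the protease Casp1, which matures the cytokines encoded by Il1b and Il18 and cleaves Gsdmd, whose freed end forms pores in the plasma membrane and leads to a lytic death called pyroptosis. Casp4, known in mice as the LPS-binding caspase of the noncanonical pathway, cleaves Gsdmd directly, and Casp8 links this pathway to apoptosis and necroptosis. Many of the transcripts are low in resting tissue and are carried largely by myeloid cells.

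In the mouse genome mm10 the genes lie on 7 chromosomes. Casp1 (chromosome 9, 5298517 to 5307265, plus strand) and Casp4 (chromosome 9, 5308828 to 5336783, plus strand) are neighbours, with a gap of 1562 bases between them. Because the members were compared for how they move together, promoters were read for those that could be matched. RefSeq windows on GRCm38.p6, the assembly of mm10, from 250 bases before to 50 bases after an annotated start were held for 8 of the 9 genes, and 3 are shown: the neighbours Casp4 and Casp1, and the sensor Nlrp3. Capitals mark matches to the kappa B consensus, the DNA motif of the NF-kappa B family, which mediates much of the transcriptional response to LPS.
Casp4, chr9:5308599-5308898, plus strand: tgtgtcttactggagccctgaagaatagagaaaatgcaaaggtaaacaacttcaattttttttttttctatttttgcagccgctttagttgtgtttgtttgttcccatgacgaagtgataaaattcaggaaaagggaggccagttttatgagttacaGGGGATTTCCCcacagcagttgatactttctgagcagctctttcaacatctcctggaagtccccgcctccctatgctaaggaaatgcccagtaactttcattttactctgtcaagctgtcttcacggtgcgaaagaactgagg
Casp1, chr9:5298267-5298566, plus strand: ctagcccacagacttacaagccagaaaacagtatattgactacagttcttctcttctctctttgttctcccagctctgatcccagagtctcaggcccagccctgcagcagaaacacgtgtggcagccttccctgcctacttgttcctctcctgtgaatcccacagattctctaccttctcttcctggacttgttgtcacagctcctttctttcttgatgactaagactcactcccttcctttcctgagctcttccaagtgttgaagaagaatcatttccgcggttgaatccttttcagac
Nlrp3, chr11:59541319-59541618, plus strand: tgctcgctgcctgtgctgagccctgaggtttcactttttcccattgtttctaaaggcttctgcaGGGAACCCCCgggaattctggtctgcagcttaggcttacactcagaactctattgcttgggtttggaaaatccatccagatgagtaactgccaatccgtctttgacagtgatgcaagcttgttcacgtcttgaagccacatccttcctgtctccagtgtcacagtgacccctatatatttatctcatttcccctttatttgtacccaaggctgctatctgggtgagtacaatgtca

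The Casp4 window held 2 overlapping matches, the first beginning 93 bases before the start, and the Nlrp3 window held 1, beginning 186 bases before it. The Naip5 window (chr13:100247287-100247586, minus strand) also held 1, beginning 218 bases before its start, and no match was found in the windows of Casp1, Aim2, Nlrc4, Pycard or Casp8. A second annotated start of Nlrp3 had a window without a match, and a second Casp4 window overlapped the first and held the same bases. On either strand, the motif was present in 4.51% of 32851 RefSeq windows of this length. Searches on both strands for GAAA repeated with any 2 bases between, an interferon-stimulated response element present in 3.44% of all windows, for TTCNNNGAA, a STAT site present in 8.3%, and for TGANTCA, an AP-1 site present in 7.81%, gave no match in the members' windows. A match in these letters is a description and was not tested for binding.

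The libraries held between 22382535 and 38062873 counts (median 28494877). Protein-coding genes took 77.8% of the counts in WT PBS 5 and 80.1% in Adm+/- PBS 6, against 84.3% to 87.6% in the other 10 libraries. Values are given as CPM, read counts scaled to a common library size, after TMM normalisation, which sets libraries against each other by the bulk of their genes. Adm stood at 3.96, 7.09 and 4.57 CPM in WT PBS libraries 3, 4 and 5, and at 4.58, 2.87 and 3.62 CPM in Adm+/- PBS libraries 6, 7 and 8. In LPS it stood at 7.77, 8.15 and 4.46 CPM in WT libraries 9, 10 and 11, and at 3.74, 6.28 and 3.92 CPM in Adm+/- libraries 1, 2 and 12. The targeted gene was lower on average in Adm+/- lungs, but the groups overlapped in both treatments, so its transcript did not separate the genotypes library by library. The fitted log2 difference was -0.50 in PBS (edgeR quasi-likelihood test, adjusted p = 0.999) and -0.55 in LPS (adjusted p = 0.480).

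Markers of other cell types were read beside the members. The summed level of 12 neutrophil markers was 59.7 to 186 CPM in WT PBS, 40.8 to 68.5 CPM in Adm+/- PBS, 1701 to 2966 CPM in WT LPS and 1607 to 1924 CPM in Adm+/- LPS. Of the 11 that could be tested, 10 rose in WT and 11 in Adm+/- lungs, with S100a9 and S100a8 the most abundant by group mean after LPS in both genotypes. The 186 CPM belonged to WT PBS 4, about 3 times the level of its group mates. Ly6g was at 0 in 1 WT PBS and 1 Adm+/- PBS library, Mpo in 1 WT PBS library and Elane in 2 Adm+/- PBS libraries. The summed level of 12 monocyte and macrophage markers, led in PBS by Lyz2, Csf1r and Mrc1, was 1063 to 1293 CPM in WT PBS, 1033 to 1255 CPM in Adm+/- PBS, 1694 to 2274 CPM in WT LPS and 1922 to 2382 CPM in Adm+/- LPS, and none of them was at 0. In WT lungs 10 of these 12 rose, and in Adm+/- lungs 9 rose and 1 fell. Lyz2 alone made up most of their sum in every library. It held 1053 of 1293 CPM in WT PBS 3 and 1706 of 2382 CPM in Adm+/- LPS 1. The type II pneumocyte markers, led by the surfactant gene Sftpc, summed to 13136 to 16801 CPM over all libraries, with 0 of 8 called in WT, and 2 higher and 1 lower in Adm+/- lungs. Type I pneumocyte markers, led by Ager, summed to 1858 to 2341 CPM (1 of 6 higher in WT, 2 in Adm+/- lungs), endothelial markers to 2822 to 3517 CPM (2 of 8 lower in WT, 1 in Adm+/- lungs), and lymphocyte markers to 22.4 to 39.96 CPM (0 of 10 called in WT, 1 higher in Adm+/- lungs). Over all tested genes, 17.6% passed in WT and 25.0% in Adm+/- lungs.

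**Figure D1:**
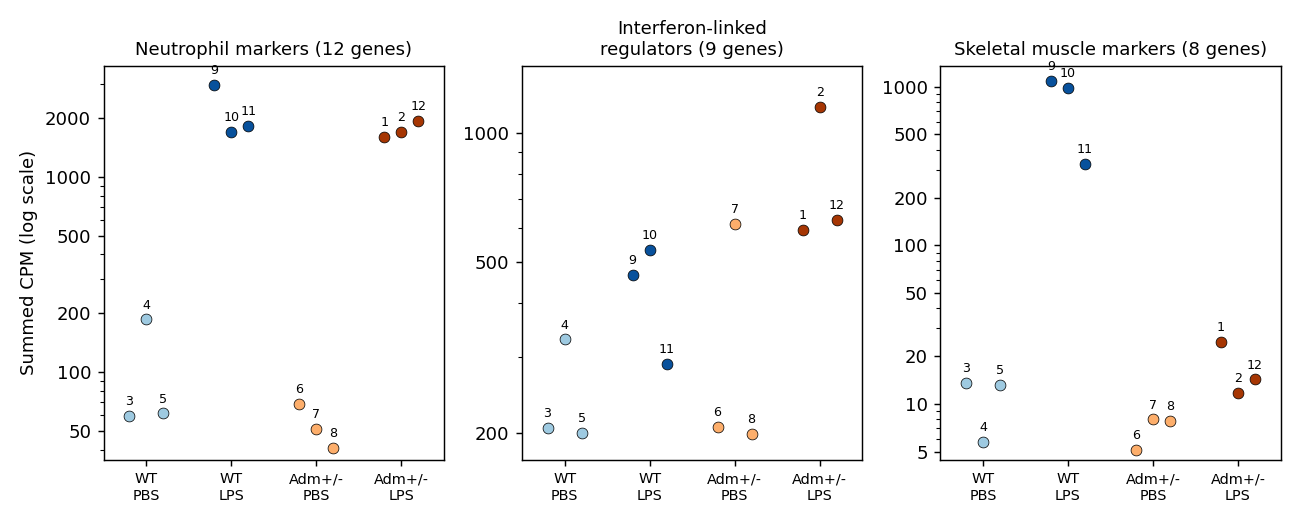
Summed CPM (log scale) of neutrophil markers, interferon-linked regulators and skeletal muscle markers in each of the 12 libraries, coloured by group and numbered by library. WT PBS 4 stands above its group for neutrophil markers, Adm+/- PBS 7 (613 CPM) above its group for interferon-linked genes, and the 3 WT LPS libraries above all others for muscle markers.

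Further lists set 1 library or 1 group apart. A list of 9 interferon-linked regulators summed to 613 CPM in Adm+/- PBS 7, against 199 and 206 CPM in its group mates, a level within the 592 to 1146 CPM of Adm+/- LPS and above the 289 to 532 CPM of WT LPS. The 8 skeletal muscle markers, led by Acta1, Mylpf and Myh1, summed to 325 to 1086 CPM in WT LPS and to no more than 24.5 CPM in any other library, and 7 of the 7 tested rose in WT and 1 (Acta1) in Adm+/- lungs. Tnnc2, the eighth, was at 0 in 8 of the 12 libraries, and Myh4 in 5. What part the myeloid, interferon-linked and muscle differences have in the values below was not tested. In whole lung, more cells of a type and more transcript per cell cannot be told apart.

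The genes differed widely in level once divided by length. In WT PBS, Casp8 was highest at 18.2 ± 1.69 CPM per kb of exon (mean ± SD, n = 3), followed by Gsdmd at 12.9 ± 2.06 and Pycard at 3.46 ± 0.569, each apart from the next. Pycard overlapped only Casp4 among the rest, through WT PBS 4, where Casp4 reached 3.17 CPM per kb. Casp1, Casp4, Naip5, Nlrp3, Aim2 and Nlrc4 followed, down to 0.691 CPM per kb, and no neighbours in that order were apart beyond their range. Adm+/- PBS lungs began with the same 3 genes, at 19.6 ± 0.973, 13.8 ± 1.88 and 3.46 ± 0.252 CPM per kb. After LPS the order changed. Gsdmd (19.9 ± 1.70 in WT, 22.5 ± 1.16 in Adm+/- lungs) stood above Casp8 (15.7 ± 0.471 and 16.5 ± 1.04), and Casp4 took the next place at 7.18 ± 3.11 and 13.0 ± 1.48 CPM per kb. In WT LPS, Casp4 overlapped Pycard, Pycard overlapped Nlrp3, and Nlrp3 overlapped Casp1. In Adm+/- LPS, Casp4, Nlrp3 (6.22 ± 0.355), Pycard (4.85 ± 0.381) and Casp1 (3.26 ± 0.411) were each apart from the next. Aim2, Naip5 and Nlrc4 were the lowest in both LPS groups, with neighbours overlapping.

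**Figure D2:**
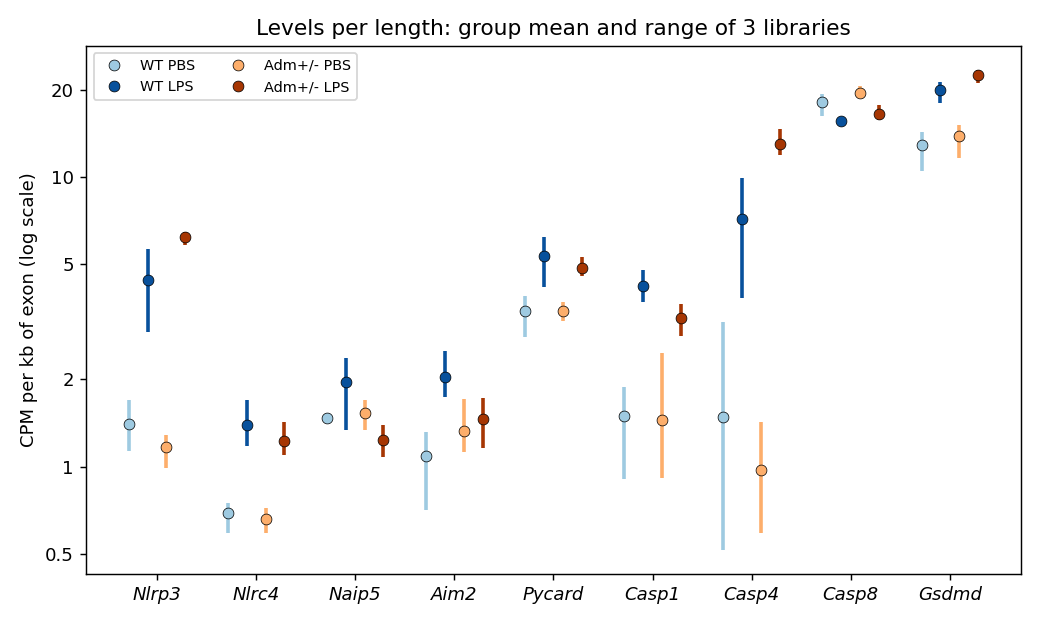
Levels of the 9 genes in CPM per kb of exon (log scale) in the 4 groups, where points are means and bars the range of 3 libraries. Casp8 and Gsdmd lie highest in every group, and Casp4 moves from among the 6 low genes in PBS to the third place in LPS.

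The first comparison asked how the pathway's transcripts respond to LPS in each genotype. In WT lungs 7 of the 9 genes rose past the threshold, an adjusted p below 0.05 with an absolute log2 fold change above 0.5, and none fell, where 17.6% of all tested genes passed in either direction 10.5% as higher and 7.09% as lower. The 7 were Nlrp3, Nlrc4, Aim2, Pycard, Casp1, Casp4 and Gsdmd. In Adm+/- lungs 5 rose and none fell, namely Nlrp3, Nlrc4, Casp1, Casp4 and Gsdmd, against 25.0% of all genes in either direction, 12.8% as higher and 12.2% as lower. The median log2 fold change of the 9 was 0.90 in WT and 0.70 in Adm+/- lungs, beside 0.01 and -0.01 over all tested genes. Fold changes and adjusted p-values are from edgeR's quasi-likelihood test with Benjamini-Hochberg adjustment over all tested genes. Each p rests on the spread within all 4 groups of 3 libraries, fitted together, and not on the groups of its contrast alone. Fitted with only the libraries of the contrast, 3 genes passed in WT (Nlrp3, Nlrc4 and Casp1) and the same 5 in Adm+/- lungs. The count in WT fell to 3 without WT LPS 9 (Nlrp3, Nlrc4 and Gsdmd), and to 5 without WT PBS 5, when Aim2 and Pycard no longer passed.

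**Figure D3:**
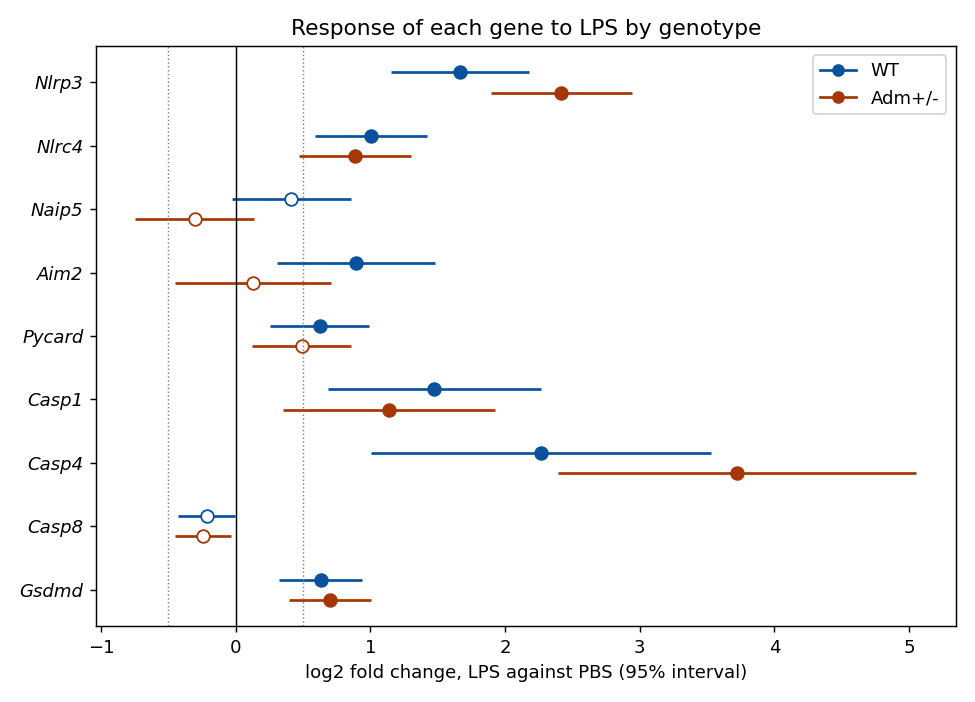
Log2 fold change of LPS against PBS for each gene in WT (blue) and Adm+/- (brown) lungs with 95% intervals, where filled points passed the threshold and dotted lines mark the fold threshold of 0.5. Casp4 and Nlrp3 lie farthest to the right in both genotypes, and Casp8 lies left of 0 in both.

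Among the sensors, Nlrp3 responds to ion efflux and membrane damage after its transcript has been primed. It stood at 4.58, 6.89 and 5.56 CPM in WT PBS libraries 3, 4 and 5, and at 22.9, 19.2 and 11.8 CPM in WT LPS libraries 9, 10 and 11. In Adm+/- lungs it stood at 4.95, 5.203 and 4.02 CPM in PBS libraries 6, 7 and 8, and at 26.2, 26.0 and 23.6 CPM in LPS libraries 1, 2 and 12. LPS and PBS libraries did not overlap in either genotype, and WT LPS 11 was the lowest of the 6 LPS libraries. Nlrp3 rose by a log2 fold change of 1.66 (SE 0.23, adjusted p = 0.00087) in WT and of 2.42 (SE 0.24, adjusted p = 7.68e-05) in Adm+/- lungs, and it passed in each of the 12 fits that left out 1 library.

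Nlrc4, which assembles with flagellin- and secretion-system-binding Naip proteins, stood at 3.53, 3.59 and 2.84 CPM in WT PBS and at 8.14, 6.24 and 5.66 CPM in WT LPS. The Adm+/- values were 2.84, 3.45 and 3.22 CPM in PBS and 5.27, 5.49 and 6.84 CPM in LPS. The groups were apart in both genotypes, with little spread among PBS lungs. Nlrc4 rose by 1.003 (SE 0.19, adjusted p = 0.00443) in WT and by 0.88 (SE 0.19, adjusted p = 0.00488) in Adm+/- lungs on the log2 scale, also in each of the 12 fits without 1 library.

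Naip5, a flagellin receptor that works through Nlrc4, stood at 7.73, 7.38 and 7.85 CPM in WT PBS and at 11.2, 6.99 and 12.3 CPM in WT LPS. Adm+/- lungs held 6.94, 8.11 and 8.83 CPM in PBS and at 6.47, 5.61 and 7.27 CPM in LPS. LPS and PBS libraries overlapped in both genotypes, and WT LPS 10 lay below every WT PBS library while WT LPS 9 and 11 lay above them. Neither response passed, with log2 values of 0.41 (SE 0.20, adjusted p = 0.161) in WT and -0.30 (SE 0.20, adjusted p = 0.282) in Adm+/- lungs. Without WT LPS 10 the WT value was 0.62 and passed (adjusted p = 0.0238). Naip5 lies on chromosome 13 (100211739 to 100246323, minus strand) next to the closely related Naip2 and Naip6, so reads shared by these copies could be lost or split in counting.

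Aim2, the cytosolic DNA sensor, stood at 4.31, 4.61 and 2.47 CPM in WT PBS and at 8.75, 6.49 and 6.09 CPM in WT LPS. The Adm+/- libraries gave 4.05, 5.98 and 3.94 CPM in PBS and at 5.24, 4.06 and 6.02 CPM in LPS. The WT groups were apart, whereas the Adm+/- groups overlapped, with Adm+/- PBS 7, the library high in interferon-linked transcripts, near the top of the LPS range. Aim2 rose in WT by 0.90 (SE 0.27, adjusted p = 0.0353) on the log2 scale. In Adm+/- lungs its log2 fold change was 0.13 (SE 0.27, 95% interval -0.45 to 0.71, adjusted p = 0.749), and 0.35 (adjusted p = 0.393) without Adm+/- PBS 7. The WT call was lost in 4 of the 12 fits without 1 library, including that without WT PBS 5, where the value was 0.67 (adjusted p = 0.0867).

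Pycard, the adaptor that joins sensors to Casp1, stood at 13.9, 14.8 and 10.7 CPM in WT PBS and at 23.5, 15.8 and 21.3 CPM in WT LPS. In Adm+/- lungs it stood at 13.3, 12.1 and 14.04 CPM in PBS and at 20.1, 17.9 and 17.4 CPM in LPS. LPS libraries lay above PBS libraries in both genotypes, narrowly in WT, where LPS 10 was close to PBS 4. Pycard rose in WT by 0.62 (SE 0.17, adjusted p = 0.0239) on the log2 scale. In Adm+/- lungs its value of 0.49 (SE 0.17, adjusted p = 0.0458) met the p but not the fold threshold. The WT call was lost in the fits without WT PBS 5 (0.49, adjusted p = 0.0597), WT LPS 9 (0.49, adjusted p = 0.116) or WT LPS 11 (0.58, adjusted p = 0.0593). On chromosome 7 (127989708 to 127993867, minus strand) 485 of its exon bases, 12.8%, are also covered by Gm45205 on the other strand, and the sources used here do not state whether strand was used in counting.

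Casp1, the protease that matures Il1b and Il18 products, had the fewest reads of any member, from 22 to 231 counts per library. It stood at 2.56, 2.81 and 1.36 CPM in WT PBS and at 7.12, 5.53 and 6.29 CPM in WT LPS, and at 1.37, 3.68 and 1.47 CPM in Adm+/- PBS and 4.23, 4.94 and 5.45 CPM in Adm+/- LPS. The groups did not overlap, although Adm+/- PBS 7 lay closer to the LPS libraries than to its group mates. Casp1 rose by 1.47 (SE 0.36, adjusted p = 0.0152) in WT and by 1.14 (SE 0.36, adjusted p = 0.0322) in Adm+/- lungs on the log2 scale. The Adm+/- value was 1.77 (adjusted p = 0.00282) without Adm+/- PBS 7, and the call was lost in 5 of the 12 fits without 1 library (each of the other Adm+/- libraries). The WT call was lost without WT LPS 9 (1.37, adjusted p = 0.0601).

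Casp4 showed the widest range. It stood at 2.87, 11.7 and 1.91 CPM in WT PBS and at 36.95, 28.7 and 14.2 CPM in WT LPS, and at 3.37, 5.27 and 2.19 CPM in Adm+/- PBS and 45.8, 54.4 and 44.1 CPM in Adm+/- LPS. The groups did not overlap in either genotype, and WT PBS 4, the library high in neutrophil markers, came close to WT LPS 11, the lowest of the LPS libraries. Casp4 rose by a log2 fold change of 2.27 (SE 0.58, adjusted p = 0.0180) in WT and of 3.72 (SE 0.61, adjusted p = 0.000985) in Adm+/- lungs. Without WT PBS 4 the WT value was 3.45 (adjusted p = 0.0011), and without WT LPS 9 it was 1.95 and no longer passed (adjusted p = 0.077).

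The neighbours Casp4 and Casp1 did not keep a fixed proportion. Per kb of exon, Casp4 was 0.452 to 1.68 times Casp1 in WT PBS and 0.577 to 0.993 times Casp1 in Adm+/- PBS. The ratio was 0.909 to 2.096 in WT LPS, where it overlapped that of WT PBS, and 3.26 to 4.44 in Adm+/- LPS, where it overlapped no other group. The ratio of Nlrp3 to Nlrc4 per kb was 1.54 to 2.32 in WT PBS, 1.48 to 2.06 in Adm+/- PBS, 2.48 to 3.64 in WT LPS and 4.09 to 5.88 in Adm+/- LPS, and the LPS groups overlapped neither each other nor the PBS groups. These ratios were chosen after the levels had been seen and are given without a test.

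Gsdmd, whose cleaved form makes the membrane pore, stood at 25.0, 33.97 and 32.9 CPM in WT PBS and at 48.5, 50.7 and 42.9 CPM in WT LPS. Levels in Adm+/- lungs were 34.9, 35.98 and 27.8 CPM in PBS and at 55.7, 54.3 and 50.4 CPM in LPS. The groups were apart in both genotypes, and the gene was well expressed before LPS. Gsdmd rose by 0.63 (SE 0.14, adjusted p = 0.00932) in WT and by 0.70 (SE 0.14, adjusted p = 0.00314) in Adm+/- lungs on the log2 scale, and passed in each of the 12 fits without 1 library. Tested against a log2 change of 0.5 rather than against 0, by edgeR's glmTreat, it no longer passed (adjusted p = 0.396 in WT and 0.162 in Adm+/- lungs).

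Casp8, the initiator of receptor-driven apoptosis that also restrains necroptosis, was the member whose log2 fold change was negative in both genotypes. It stood at 47.0, 56.2 and 54.5 CPM in WT PBS and at 45.1, 46.7 and 44.05 CPM in WT LPS, and at 59.8, 55.4 and 54.5 CPM in Adm+/- PBS and 46.4, 51.2 and 45.7 CPM in Adm+/- LPS. The LPS libraries lay below the PBS libraries in both genotypes, by a small margin in WT, where LPS 10 was just under PBS 3. The values of -0.21 (SE 0.10, adjusted p = 0.130) in WT and -0.24 (SE 0.10, adjusted p = 0.0765) in Adm+/- lungs did not pass. Over the 9 genes, LPS and PBS libraries did not overlap for 8 in WT (7 higher and 1 lower) and for 7 in Adm+/- lungs (6 higher and 1 lower), where 18.3% and 26.6% of all tested genes lay apart as higher in the 2 genotypes and 17.9% and 27.1% as lower.

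**Figure D4:**
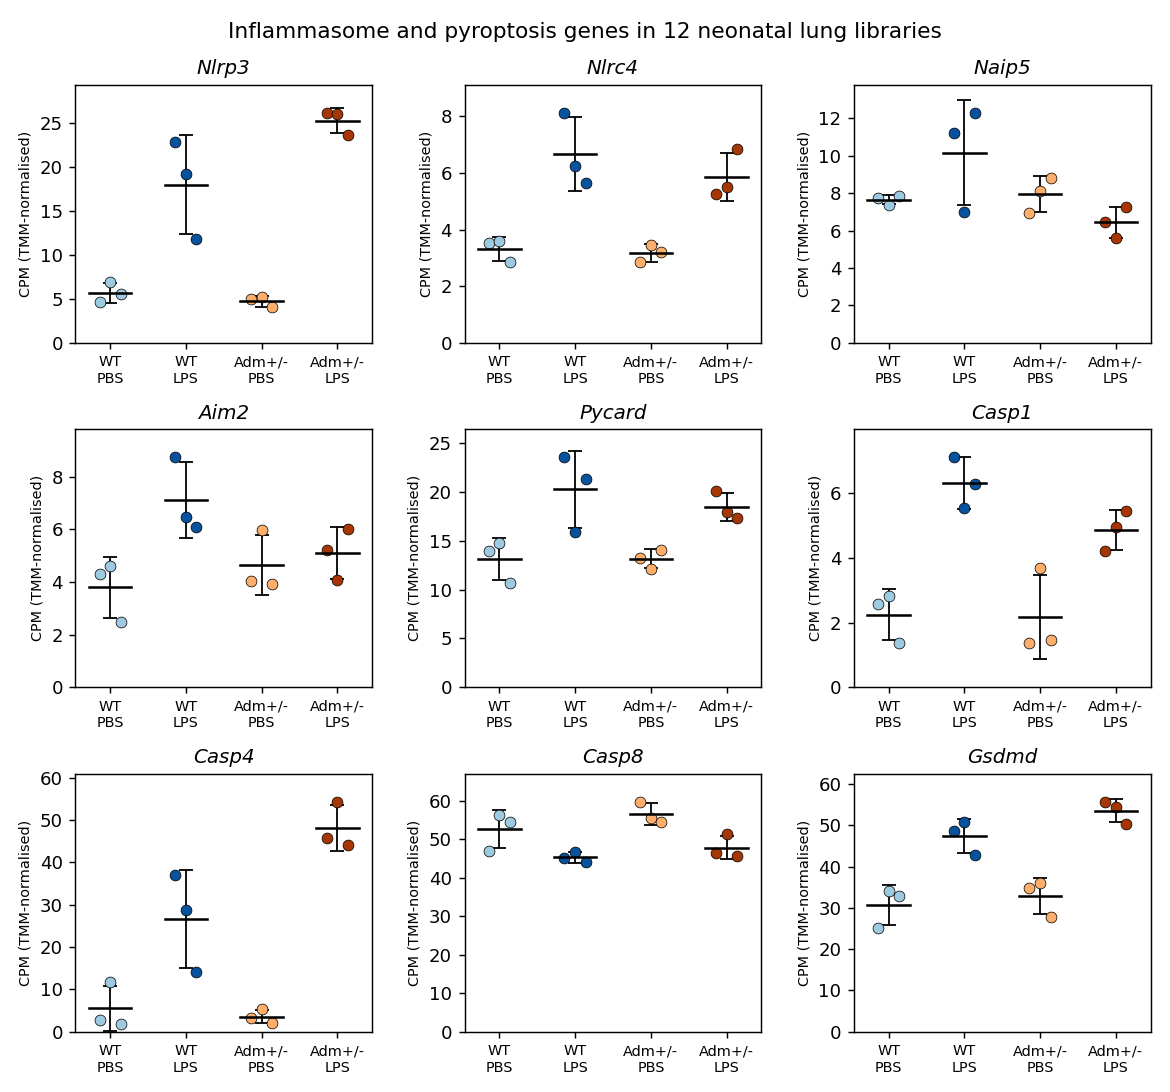
CPM of the 9 genes in each library, with group means and SD (n = 3). LPS points lie above PBS points in both genotypes for Nlrp3, Nlrc4, Pycard, Casp1, Casp4 and Gsdmd, in WT alone for Aim2, and below them in both for Casp8.

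The second comparison asked whether the response to LPS differed between genotypes. None of the 9 genes passed in the test of the difference, in which 0.145% of all tested genes passed. The largest difference, Adm+/- minus WT, was that of Casp4 at 1.46 on the log2 scale (95% interval -0.28 to 3.20, adjusted p = 0.739). It was 0.27 (adjusted p = 0.978) without WT PBS 4. At an unadjusted p below 0.05 there were 2, against 7.85% of all genes, namely Nlrp3 with 0.75 (interval 0.04 to 1.46, unadjusted p = 0.0398, adjusted p = 0.597) and Naip5 with -0.72 (interval -1.34 to -0.09, unadjusted p = 0.0282, adjusted p = 0.539). Aim2 had a difference of -0.77 (interval -1.59 to 0.06, adjusted p = 0.679) and Casp1 of -0.34 (interval -1.44 to 0.77, adjusted p = 0.995). The intervals were narrower for Casp8 (-0.33 to 0.27), Gsdmd (-0.36 to 0.50), Pycard (-0.65 to 0.39) and Nlrc4 (-0.70 to 0.47). DESeq2 and limma-voom also called none of the 9.

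Between the genotypes within LPS, none of the 9 genes passed by edgeR or limma-voom, where 2.05% of all tested genes did by edgeR. At an unadjusted p below 0.05 there were 2, Nlrp3 and Naip5, against 14.3% of all genes. Nlrp3 and Casp4 were higher in every Adm+/- LPS library than in any WT LPS library, and Aim2 and Casp1 were lower in every one, so that 4 of 9 lay apart, where 24.6% of all genes did. For Nlrp3 the log2 difference was 0.49 (SE 0.22, adjusted p = 0.342), for Casp4 0.85 (SE 0.53, adjusted p = 0.552), for Aim2 -0.48 (SE 0.26, adjusted p = 0.468) and for Casp1 -0.37 (SE 0.34, adjusted p = 0.7497). Without WT LPS 11 the difference was 0.26 (adjusted p = 0.935) for Nlrp3 and 0.55 (adjusted p = 1.0) for Casp4, and without WT LPS 9 that of Aim2 was -0.29. Naip5 had the smallest unadjusted p of the 9 (0.00714), with a log2 difference of -0.66 (SE 0.20, adjusted p = 0.126), although WT LPS 10 lay within the Adm+/- range. It passed with DESeq2 (-0.65, adjusted p = 0.0456) and without WT LPS 10 (-0.86, adjusted p = 0.0144).

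Within PBS, no member passed by edgeR, DESeq2 or limma-voom, and none had an unadjusted p below 0.05 by edgeR, where 0.0% and 2.17% of all genes did. The log2 differences ran from -0.61 for Casp4 (interval -1.90 to 0.68) to 0.29 for Aim2 (interval -0.30 to 0.88), and the genotypes overlapped for every member, where 4.99% of all genes lay apart. The value of Casp4 rested on WT PBS 4, without which it was 0.58 (adjusted p = 0.938).

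Across the 12 libraries the members fell into patterns that can be described by Pearson's r of log2 CPM, values that share the treatment groups and carry no p. Nlrp3 ran with Casp4 (r = 0.966) and Gsdmd (0.950), Nlrc4 with Casp1 (0.924), and Casp8 against all the others, from -0.826 with Nlrc4 to -0.350 with Naip5. Naip5 had r from -0.350 to 0.405 with the others. Among all tested genes, those most like Nlrp3 were Glul (0.994), Slc15a3 (0.994) and Tnfaip2 (0.994). Those most like Casp4 were Serpina3g (0.992), Bcl2a1d (0.988) and Mefv (0.987). Nlrc4 was closest to Klhl6 (0.990), N4bp2l1 (0.978) and Camta1 (0.9747), Casp1 to genes that included Gpr141 (0.964) and 1500011B03Rik (0.959), and Pycard to Syt8 (0.972), Ipmk (0.969) and Plbd1 (0.959). Gsdmd was closest to Il27 (0.978), Trim66 (0.966) and Gzmb (0.966), Casp8 to Hmgb1 (0.948), Bub3 (0.942) and Hnrnpl (0.940), Aim2 to Asnsd1 (0.936), Tnfrsf13b (0.922) and Rpl23 (0.915), and Naip5 to Osbpl2 (0.940), Grhl3 (0.936) and Slc10a5 (0.931).

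The rest of the pathway was read from 6 lists. Of 9 other inflammasome sensors, 4 rose in WT, and 3 rose and 2 fell in Adm+/- lungs, with a median log2 fold change of 1.07 and 0.64. Over all tested genes, 10.5% rose and 7.09% fell in WT, and 12.8% rose and 12.2% fell in Adm+/- lungs. Naip2, which recognises the rod of bacterial secretion systems, went from 9.21 ± 1.78 to 24.4 ± 4.99 CPM in WT (mean ± SD, n = 3; log2 1.399, adjusted p = 0.00112) and from 9.39 ± 1.49 to 21.0 ± 3.18 CPM in Adm+/- lungs (1.16, adjusted p = 0.00154), while its neighbour Naip6 did not pass in either (0.68, adjusted p = 0.0531, and 0.18, adjusted p = 0.596). Mefv, which encodes the sensor pyrin, rose by 2.66 (adjusted p = 0.00832) and 3.69 (adjusted p = 0.001) on the log2 scale in the same order. Nlrp6 rose by 1.73 (adjusted p = 0.0488) and 1.596 (adjusted p = 0.043), from 0.438 and 0.541 CPM in PBS. Naip1, a receptor for the needle of those systems, rose in WT by 3.12 (adjusted p = 0.0177) from 0.166 to 1.62 ± 1.34 CPM, beside 0.64 (adjusted p = 0.653) in Adm+/- lungs, and the test of the difference gave an adjusted p of 0.732. Nlrp1b and Nlrp10 fell in Adm+/- lungs, with log2 values of -1.34 (adjusted p = 0.0119) and -1.54 (adjusted p = 0.0196). Their WT values of -0.31 (adjusted p = 0.524) and -0.81 (adjusted p = 0.198) did not pass, nor did the differences between the responses (adjusted p = 0.638 and 0.928).

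Of the 4 cytokine substrates and alarmins, 3 rose in each genotype, with a median log2 fold change of 1.79 in WT and 3.00 in Adm+/- lungs. Among all tested genes 10.5% rose in WT and 12.8% in Adm+/- lungs. Il1b went from 5.46 ± 4.28 to 39.9 ± 19.8 CPM in WT (2.87, adjusted p = 0.00216) and from 2.82 ± 0.311 to 78.1 ± 8.99 CPM in Adm+/- lungs (4.79, adjusted p = 0.000105). Il1a rose by 2.46 (adjusted p = 0.00657) and 3.57 (adjusted p = 0.000419), and the alarmin Il33 by 1.11 (adjusted p = 0.043) and 2.43 (adjusted p = 0.000564). Il18, the other Casp1 substrate, did not pass, with 0.86 in both genotypes (adjusted p = 0.0759 and 0.0632). The difference of the LPS responses did not pass for any of the 4, with adjusted p from 0.455 for Il1b upward. Within LPS, Il33 was 1.31 higher in Adm+/- than in WT lungs on the log2 scale and did not pass by edgeR (adjusted p = 0.0761).

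Only 2 of the 9 genes listed for other gasdermins and membrane rupture had enough reads to be tested. Both rose in both genotypes, where 10.5% of all tested genes rose in WT and 12.8% in Adm+/- lungs. Gsdme, a further pore-forming gasdermin, went from 9.46 ± 3.60 to 26.1 ± 2.98 CPM in WT (1.45, adjusted p = 0.00371) and from 8.46 ± 2.22 to 30.1 ± 1.42 CPM in Adm+/- lungs (1.83, adjusted p = 0.000538). Ninj1, which ruptures the membrane after pore formation, rose by 0.79 (adjusted p = 0.00766) and 1.34 (adjusted p = 0.00022). The remaining 7, the Gsdma and Gsdmc genes, had at most 40 counts in any library.

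Of all tested genes, 10.5% rose in WT, and 12.8% rose and 12.2% fell in Adm+/- lungs. Of 10 tested activators and brakes of inflammasomes, 4 rose in WT, and 5 rose and 1 fell in Adm+/- lungs. Those that rose in both were mostly known as brakes: Il1rn, the antagonist of the interleukin 1 receptor (3.66, adjusted p = 0.00048, and 4.79, adjusted p = 7.68e-05), Tnfaip3, an inhibitor of NF-kappa B signalling (1.88, adjusted p = 0.00777, and 3.30, adjusted p = 0.000247), and Serpinb1a, a protease inhibitor (1.47, adjusted p = 0.00159, and 0.93, adjusted p = 0.0101), together with Txnip, a binding partner of Nlrp3 (0.87, adjusted p = 0.00708, and 1.10, adjusted p = 0.00107). Trim30a rose (1.64, adjusted p = 0.009) and P2rx7, the ATP-gated channel upstream of Nlrp3, fell by 0.75 on the log2 scale (adjusted p = 0.00522) in Adm+/- lungs. In WT their values of 0.89 (adjusted p = 0.122) and -0.34 (adjusted p = 0.153) did not pass. Trim30a stood at 38.6, 91.4 and 42.4 CPM in Adm+/- LPS libraries 1, 2 and 12, and at 13.3, 27.4 and 14.5 CPM in Adm+/- PBS libraries 6, 7 and 8. Nek7, the kinase partner of Nlrp3, met the p but not the fold threshold in Adm+/- lungs and in WT (0.43 and 0.50).

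Of 8 tested interferon-linked regulators, 1 rose in WT and 2 in Adm+/- lungs, where 10.5% and 12.8% of all tested genes rose. Irf2, a transcription factor known to drive Gsdmd, rose by 0.60 (adjusted p = 0.0192) and 0.88 (adjusted p = 0.00163). Gbp5, a guanylate-binding protein, stood at 5.94 ± 5.41 CPM in WT PBS and 12.3 ± 16.3 CPM in Adm+/- PBS, where 31.1 CPM was that of Adm+/- PBS 7. It rose in Adm+/- lungs (3.16, adjusted p = 0.0302), with a WT value of 2.53 (adjusted p = 0.0876), and Irf1 did not pass in either (0.20, adjusted p = 0.725, and 0.72, adjusted p = 0.172).

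Of 8 partners of Casp8 and of necroptosis, 0 rose in WT and 3 in Adm+/- lungs, where 10.5% and 12.8% of all tested genes rose. Falls in this list are not reported here. Ripk1 (0.80, adjusted p = 0.00163), Casp12 (1.96, adjusted p = 0.0113) and the necroptosis effector Mlkl (0.84, adjusted p = 0.0318) rose in Adm+/- lungs. Their WT values of 0.35 (adjusted p = 0.0946), 1.33 (adjusted p = 0.0716) and 0.33 (adjusted p = 0.388) did not pass. Mlkl stood at 12.1, 24.4 and 14.4 CPM in Adm+/- LPS libraries 1, 2 and 12. In Adm+/- PBS libraries 6, 7 and 8 it stood at 9.78, 11.7 and 6.84 CPM, so LPS 1 lay just above PBS 7. Cflar, the brake on Casp8, met the p but not the fold threshold in WT (0.32, adjusted p = 0.0448) and in Adm+/- lungs (0.49, adjusted p = 0.0043). By edgeR, no gene of the 6 lists passed in the test of the difference between genotypes or in either comparison of Adm+/- with WT, and 0 to 2 genes of a list had an unadjusted p below 0.05 in the first, 0 within PBS and 0 to 3 within LPS. DESeq2 called 2 of them within LPS, Il33 and Naip1.

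**Figure D5:**
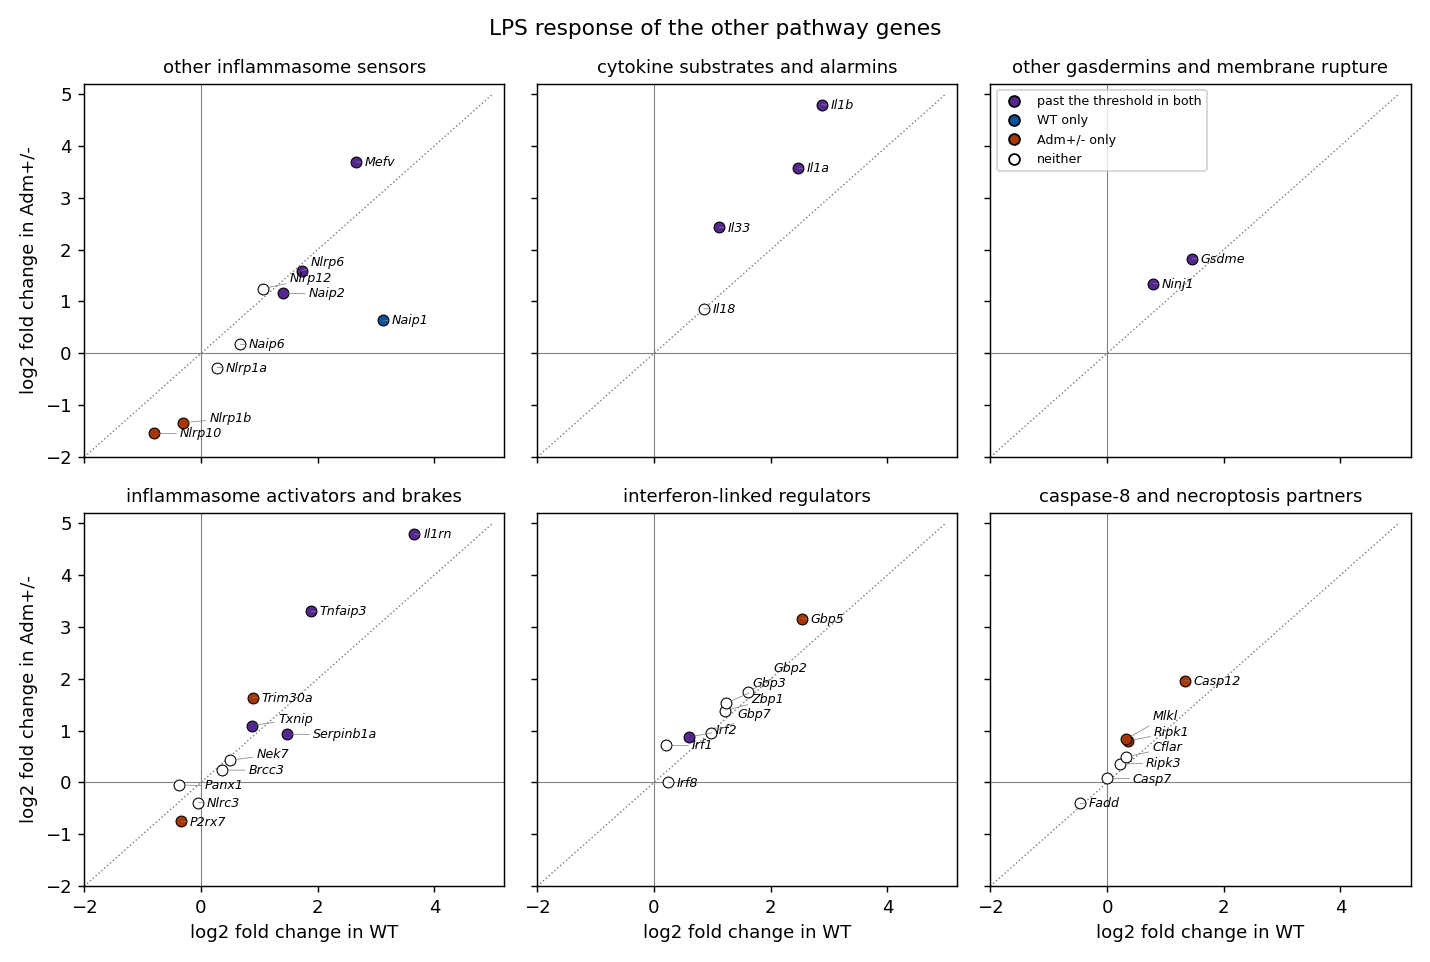
Log2 fold change with LPS in WT (x axis) against Adm+/- lungs (y axis) for the tested genes of the 6 pathway lists that are reported, coloured by where they passed the threshold, with equal responses on the dotted line. The axes do not share libraries, and Il1b, Il1rn, Mefv and Il1a lie farthest from the origin on the y axis.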

How the data were processed

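Total RNA of 12 whole neonatal mouse lungs was sequenced after ribosomal RNA depletion with a directional kit. According to the submitters' processing notes, reads were trimmed with Trim Galore, aligned to mm10 with HISAT2 and counted with featureCounts. The deposited table holds raw counts, as whole numbers without normalisation, that the authors made for 52550 genes. The Gencode release and the strand option of the counting are not given in the sources used here, and positions, exon lengths and overlaps were read from Gencode M21. Reads carry no molecular identifiers, so counting precision covers counting error only.

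Of the protein-coding rows, those kept by filterByExpr in edgeR (15885 genes) were normalised by TMM and fitted with glmQLFit in 1 model of the 4 groups (8 residual degrees of freedom), using R 4.3.3, edgeR 4.0.16 and limma 3.58.1. The 5 contrasts were LPS against PBS in each genotype, their difference, and Adm+/- against WT in each treatment, tested two-sided by glmQLFTest with Benjamini-Hochberg adjustment over all tested genes. The threshold was an adjusted p below 0.05 together with a log2 fold change above 0.5 in size. Standard errors are the fold change divided by the root of F, and 95% intervals use the fit's degrees of freedom. Log2 CPM for correlations used a prior count of 2. The fit was tested on simulated data with 200 changed genes. The 12 pairs of libraries within a group were compared before averaging, and 0 were identical. The 3 samples per group are stated as separate animals of each genotype and exposure.

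The members, the 6 pathway lists and the 7 marker lists were chosen with earlier results of these data known. Named are all members, up to 6 genes per pathway list that passed in either LPS contrast and the most abundant that did not, the 3 genes most like each member by Pearson's r, Adm, and up to 3 abundant genes of a marker list, and of these 3 genes are not reported here. Gsdme and Irgb10 were matched through the older symbols Dfna5 and Gm12250, and of the 2 rows named Itgam the one with more counts was used. Alternatives were RLE size factors, DESeq2 1.42.0, limma-voom, glmTreat, other gene filters, all annotated genes, the libraries of a contrast alone, and fits without 1 library or without the 2 libraries poor in protein-coding reads.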

Additional observations from a re-analysis of the deposited data

How the results depend on the processing

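Counts of members past the threshold depended on the rule more than on the tool. With RLE size factors, DESeq2, limma-voom, either gene filter or all annotated genes, 7 passed in WT and 5 in Adm+/- lungs. Tested against a log2 change of 0.5 by glmTreat, 2 passed in WT (Nlrp3 and Nlrc4) and 2 in Adm+/- lungs (Nlrp3 and Casp4). With only the libraries of the contrast, 3 passed in WT (Nlrp3, Nlrc4 and Casp1). Without 1 library, the count ran from 3 to 7 in WT, from 4 to 5 in Adm+/- lungs and from 0 to 1 for Adm+/- against WT in LPS, where DESeq2 called 1 (Naip5). Without WT PBS 5 and Adm+/- PBS 6 together, 5 passed in WT and 4 in Adm+/- lungs. The difference of the responses and the comparison within PBS gave 0 in every alternative. Of 540 single values without 1 library, 504 kept direction and side of the threshold, 14 lost and 2 gained a call, and 20 changed sign.

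Sign changes were confined to values that never passed. On the log2 scale and without 1 library, the response of Aim2 in Adm+/- lungs ran from -0.0061 to 0.35. The differences of responses ran from -0.24 to 0.057 for Nlrc4, -0.28 to 0.00081 for Pycard, -0.57 to 0.30 for Casp1, -0.078 to 0.047 for Casp8 and -0.037 to 0.20 for Gsdmd. The differences between genotypes in PBS ran from -0.020 to 0.15 for Naip5, -0.16 to 0.0012 for Nlrc4, -0.13 to 0.092 for Pycard, -0.67 to 0.19 for Casp1, -1.01 to 0.58 for Casp4 and -0.024 to 0.21 for Gsdmd. For Pycard, the PBS difference was 0.0015 with no gene filter, and the difference of responses was 0.0030 without WT PBS 5 and Adm+/- PBS 6. The cause of these changes was not tested.

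No paired analysis was possible because the labels record no litter or other pairing of animals. The library numbers run through the whole series and do not show whether animals were paired. With 3 libraries a group, the 95% interval of the difference of responses spanned from -0.28 to 3.20 for Casp4.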

Other observations

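Irgb10, an interferon-inducible GTPase that helps expose bacterial LPS to Casp4, is annotated in the file as a processed pseudogene under an older symbol and was therefore not among the tested protein-coding genes. It stood at 0.777, 1.99 and 0.865 CPM in WT PBS libraries 3, 4 and 5, and at 12.3, 14.6 and 1.71 CPM in WT LPS libraries 9, 10 and 11. In Adm+/- lungs it stood at 0.9995, 13.6 and 0.318 CPM in PBS libraries 6, 7 and 8, and at 9.05, 47.2 and 12.9 CPM in LPS libraries 1, 2 and 12. LPS and PBS libraries overlapped in both genotypes. Adm+/- PBS 7 lay above Adm+/- LPS 1 and 12, and WT LPS 11 lay below WT PBS 4. The same libraries stood out for Gbp5, at 31.1 CPM in Adm+/- PBS 7 and 191 CPM in Adm+/- LPS 2, and for Zbp1, at 10.5 and 21.0 CPM. These genes were named after their values had been seen.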
